A study of Homo sapiens with 12 samples.

Results

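The 10 genes described here are feedback inhibitors of the Ras to ERK kinase pathway, with PHLDA1, whose transcript is induced by growth factor signalling. The inhibitors are the dual-specificity phosphatase genes DUSP1, DUSP4, DUSP5, DUSP6 and DUSP7, the Sprouty genes SPRY2 and SPRY4, and the Sprouty-related genes SPRED1 and SPRED2. All 10 genes were taken by name from the 57133 gene names of the count table, and all 10 had enough reads to be tested. RNA was sequenced from MCF-10A, a non-transformed human breast epithelial line, in 4 groups of 3 libraries described by the submitters as biological replicates. Every group, the controls included, carried a doxycycline-inducible construct and received 50 ng/ml doxycycline. The groups expressed mVenus (a yellow fluorescent protein, the control), mVenus-p16 with the solvent DMSO, mVenus-p16 with 100 nM Torin2, or an mVenus fusion of p21. p16 and p21 are proteins that hold cells out of the division cycle by inhibiting cyclin-dependent kinases, and Torin2 inhibits the growth-control kinase mTOR. Doxycycline was added 20 h after seeding, the drug or DMSO 24 h after that, and RNA was taken after 5 days of induction. In all 4 groups the medium held 20 ng/ml epidermal growth factor, a ligand that activates ERK, with 5% horse serum, 10 µg/ml insulin, hydrocortisone and 100 ng/ml cholera toxin, which raises cyclic AMP. Whether each line was a single clone is not stated in the sources used here.

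Growth factor receptors activate Ras, which activates the kinases RAF, MEK and ERK in turn, and ERK enters the nucleus and switches on transcription of early response genes. Several of those genes encode inhibitors of the same pathway, so that a rise in ERK activity is followed by a brake. DUSP proteins remove the activating phosphates from ERK and related kinases. Sprouty and SPRED proteins act upstream, between the receptor and RAF, and PHLDA1 is an intracellular protein whose transcript is induced by growth factor signalling. In cultured epithelial cells the transcripts of these genes are commonly used as a readout of the pathway, but only transcripts were measured here, not ERK phosphorylation or protein.

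The libraries held 13168749 to 18321114 assigned counts. Transcripts of CDKN2A, which encodes p16, had 0 counts in all 12 libraries, so this gene did not check the labels of the p16 constructs. CDKN1A, which encodes p21, had a level of 889 ± 16.5 CPM (counts per 1000000 counts of the library after TMM scaling, which evens out differences in RNA composition between libraries; mean ± SD, n = 3) in the p21 group and 712 ± 12.97 in mVenus. Its level also differed between the groups without the p21 construct, with 570 ± 30.1 CPM in p16 and 259 ± 17.0 with Torin2 added to p16. Whether reads of the construct are part of the CDKN1A counts was not tested. MKI67, a gene of dividing cells, had 331 ± 15.6 CPM in mVenus, 10.1 ± 0.427 in p16, 51.6 ± 0.647 with Torin2 added to p16 and 3.35 ± 0.425 in p21. All 8 basal mammary epithelial markers had counts in every group, and their summed level was 7763 to 8035 CPM in mVenus, 15250 to 16110 in p16, 11890 to 12330 with Torin2 added to p16 and 9055 to 9206 in p21. These markers did not move together. KRT5 was at 1266 CPM in mVenus, 4401 in p16, 1086 with Torin2 added to p16 and 2820 in p21. LAMB3 was at 1956, 696, 1755 and 1099 CPM in the same order, and ITGB4 at 1145, 2598, 4784 and 1886. The summed leukocyte markers reached at most 0.1247 CPM, with CD3E and TYROBP at 0 throughout, and the summed endothelial markers at most 4.677 CPM. Of the 6 fibroblast markers 4 or 5 had counts in each group, and they summed to 19.79 to 20.31 CPM in mVenus, 6.705 to 7.297 in p16, 4.625 to 5.442 with Torin2 added to p16 and 110.6 to 116.6 in p21, with COL1A2 at 0 in mVenus, p16 and p21. In p21, DCN made up most of that sum (109.4 CPM), and PDGFRA was at 0.0902 CPM. The mitochondrial share of all counts was 3.87% ± 0.0305 with mVenus, 6.62% ± 0.290 with p16, 6.02% ± 0.597 with Torin2 added to p16 and 6.49% ± 0.456 in p21. The part of these differences in the results below was not tested. In bulk RNA, fewer cells of a kind and less RNA per cell cannot be told apart.

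Promoter sequences were kept only for windows that overlapped no annotated exon, which left windows of DUSP1, DUSP7, SPRY2 and SPRED2. The DUSP6 window lay within exons and was left out. Of the genes kept, DUSP1, DUSP7 and SPRY2 are shown, and these 3 genes had 3 different patterns. DUSP1 was highest with p21, and DUSP7 was highest with p16 and Torin2. SPRY2 was high with p16 whether or not Torin2 was given. Of the SPRY2 windows, only the one shown held a match to the motifs searched. Each sequence is the 250 bases before a transcription start, read 5′ to 3′ on the minus strand, from RefSeq on GRCh38.p14. The windows are chr5:172771196-172771445 for DUSP1, chr3:52056572-52056821 for DUSP7 and chr13:80341127-80341376 for SPRY2. Capitals mark matches to the motifs searched.
DUSP1: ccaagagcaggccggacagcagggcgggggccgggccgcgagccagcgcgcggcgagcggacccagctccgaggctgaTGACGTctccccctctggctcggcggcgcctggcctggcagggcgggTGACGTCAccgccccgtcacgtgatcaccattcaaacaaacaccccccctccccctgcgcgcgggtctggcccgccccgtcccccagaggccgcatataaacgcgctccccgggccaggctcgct
DUSP7: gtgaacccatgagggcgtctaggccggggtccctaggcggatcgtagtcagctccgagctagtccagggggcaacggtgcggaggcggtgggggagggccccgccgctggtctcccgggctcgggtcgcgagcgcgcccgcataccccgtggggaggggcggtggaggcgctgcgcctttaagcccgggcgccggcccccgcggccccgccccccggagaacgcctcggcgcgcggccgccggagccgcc
SPRY2: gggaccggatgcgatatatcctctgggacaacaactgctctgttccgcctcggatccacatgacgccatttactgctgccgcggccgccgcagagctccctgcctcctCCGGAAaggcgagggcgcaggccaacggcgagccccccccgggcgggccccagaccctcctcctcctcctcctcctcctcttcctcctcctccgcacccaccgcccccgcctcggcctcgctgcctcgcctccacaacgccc

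The motifs searched on both strands were TGACGT (the core of the cyclic AMP response element), TGANTCA (the AP-1 site) and CCGGAA (the core of ETS sites). RefSeq windows were found for 8 of the 10 genes, 11 windows in all, and not for DUSP4 and DUSP5. TGACGT or its reverse complement was found in 1 of the 11 windows, that of DUSP1, and in 7.1% of 35116 promoter windows of the same length. In DUSP1 it lies 172 to 167 bases before the start, and again at 125 to 120, where the match on the other strand (123 to 118) overlaps it. CCGGAA or its reverse complement was found in 2 of the 11 windows, that of SPRY2 shown above (142 to 137 bases before the start) and the 1 window of PHLDA1 (89 to 84), against 14.5% of all windows. SPRY2 has 2 other windows, with no match. The PHLDA1 window lies wholly within a PHLDA1 exon of GENCODE 29 (250 of 250 bases), 2156 bases inside the GENCODE start, so that it is a promoter only by the RefSeq start. The DUSP6 and SPRED1 windows also lie wholly within exons of their own genes, and that of SPRY4 does for 170 of its 250 bases. For 1 SPRED2 window the RefSeq start is 65859 bases from the GENCODE start. TGANTCA was in 0 of the 11 windows and in 6.57% of all windows. The DUSP7 window held no match to any of the 3. These are matches of letters, and no binding was measured.

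DUSP6 and DUSP7 encode the phosphatases that act mainly on ERK in the cytoplasm. DUSP6 (GENCODE 29, GRCh38, chr12:89347232-89353271, minus strand, 4 merged exons) had the largest change of the 10 genes with p16. Its level was 25.5, 19.7 and 24.8 CPM in mVenus replicates 1 to 3, 81.2, 81.2 and 86.9 in p16, 87.0, 82.9 and 84.3 with Torin2 added to p16, and 20.99, 18.2 and 17.9 in p21. The 6 p16 libraries lay together above all 6 others, with or without Torin2. The level was 3.52-fold higher in p16 than in mVenus, a log2 difference of 1.82 ± 0.07 (SE; edgeR adjusted p = 5.84e-15). Here and below, p-values are from edgeR's quasi-likelihood test with Benjamini-Hochberg adjustment over 14504 genes, and a gene is called where the adjusted p is below 0.05. Torin2 added a log2 difference of 0.03 ± 0.06 to p16 (adjusted p = 0.705, 95% interval -0.10 to 0.16). p21 against mVenus gave -0.32 ± 0.09 (adjusted p = 0.00363), although p21 replicate 1 lay within the mVenus range. Exons of DUSP6 overlap the antisense gene AC024909.2 over 40.48% of their bases, where reads counted without strand cannot be assigned to either gene. AC024909.2 itself had 16 counts over all libraries and DUSP6 had 9795.

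DUSP7 (chr3:52048919-52056550, minus strand, 3 merged exons) differed between every pair of groups. Levels were 43.3, 46.7 and 47.9 CPM in mVenus, 108, 101 and 103 in p16, 173, 180.5 and 178 with Torin2 added to p16, and 37.1, 31.5 and 31.3 in p21. No 2 groups overlapped, and the order was p21, mVenus, p16, p16 with Torin2. The p16 level was 2.27-fold that of mVenus (log2 difference 1.18 ± 0.06, adjusted p = 1.3e-13), and Torin2 raised it a further 1.70-fold (0.76 ± 0.05, adjusted p = 4.37e-11). With p21 it was 1.38-fold lower than in mVenus (-0.47 ± 0.06, adjusted p = 2.17e-06). The highest group mean of DUSP7 was 5.32 times the lowest, against 4.45 for DUSP6 and 1.33 to 2.67 for the other 8 genes.

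**Figure D1:**
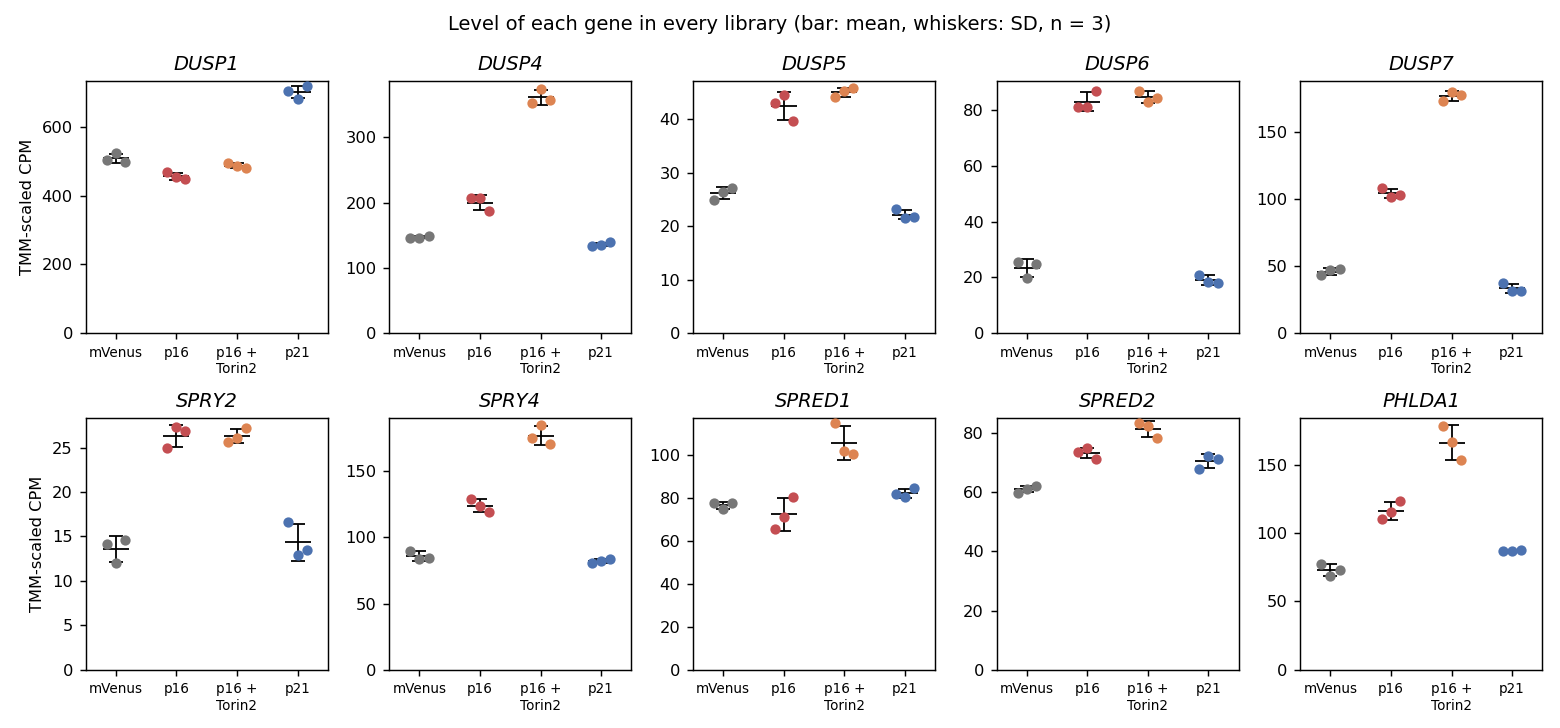
Level of each of the 10 genes in every library, in TMM-scaled CPM on a linear axis from 0, with the 4 groups along the horizontal axis; points are libraries, bars are means and whiskers are SD (n = 3). DUSP6 is near 83.1 to 84.7 in both p16 groups and near 19.0 to 23.4 in the other groups, whereas DUSP7 and DUSP4 rise again with Torin2 and DUSP1 is highest in p21 (701).

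DUSP1, DUSP4 and DUSP5 encode nuclear phosphatases that are inducible by growth factors; DUSP1 and DUSP4 act on ERK and on the stress kinases JNK and p38, whereas DUSP5 is selective for ERK. DUSP1 (chr5:172768090-172771195, minus strand, 4 merged exons) was the 1 gene of the 10 called lower with p16 than in mVenus, and it was highest with p21. It had 505, 524 and 498 CPM in mVenus, 468, 453 and 448 in p16, 496, 485 and 481 with Torin2 added to p16, and 703, 682 and 719 in p21. The p21 libraries stood above all others and did not overlap any group. The level was 1.38-fold higher with p21 than in mVenus (log2 difference 0.46 ± 0.03, adjusted p = 1.99e-10), and with p16 it was lower than in mVenus (-0.16 ± 0.03, adjusted p = 0.000355). Torin2 against p16 gave 0.09 ± 0.03 (adjusted p = 0.0197). That last call did not hold without p16 replicate 2 or 3 or Torin2 replicate 1 (adjusted p = 0.0613, 0.054 and 0.068), with only the 6 libraries compared (0.0799) or with no filter on low counts (0.145); over the 11 alternatives other than a replicate block its adjusted p was 0.003 to 0.145.

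DUSP4 (chr8:29333064-29350668, minus strand, 6 merged exons) had 146, 146 and 148 CPM in mVenus, 206, 207 and 187 in p16, 353, 374 and 357 with Torin2 added to p16, and 133, 135 and 139 in p21. The p16 and the Torin2 libraries each stood above those of every lower group. The p16 rise was 0.45 ± 0.04 on the log2 scale (adjusted p = 9.57e-09), and Torin2 added 0.85 ± 0.04, or 1.81-fold (adjusted p = 2.76e-13), the largest addition by Torin2 among the 10 genes. The p21 fall of 0.11 ± 0.04 against mVenus (adjusted p = 0.0277) did not pass without mVenus replicate 1, 2 or 3 (0.0699, 0.0562 and 0.0967), without p21 replicate 1 or 2 (0.114 and 0.0821), by DESeq2 (0.0763) or with no filter (0.282). Over the same 11 alternatives its adjusted p was 0.0044 to 0.282.

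DUSP5 (chr10:110497838-110511544, plus strand, 5 merged exons) was at 24.9, 26.4 and 27.2 CPM in mVenus, 43.1, 44.6 and 39.6 in p16, 44.1, 45.2 and 45.8 with Torin2 added to p16, and 23.1, 21.5 and 21.8 in p21. Like DUSP6, it was high in both p16 groups, and these overlapped. It rose by 0.70 ± 0.06 log2 units with p16 (adjusted p = 1.43e-09) and fell by 0.24 ± 0.06 with p21 (adjusted p = 0.00298). Torin2 gave 0.09 ± 0.05 against p16 (adjusted p = 0.189, 95% interval -0.03 to 0.20).

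The Sprouty proteins are membrane-associated inhibitors of receptor signalling to Ras and RAF. SPRY2 (chr13:80335976-80340951, minus strand, 3 merged exons) had 14.2, 12.0 and 14.6 CPM in mVenus, 24.9, 27.3 and 26.8 in p16, 25.7, 26.1 and 27.2 with Torin2 added to p16, and 16.7, 12.9 and 13.4 in p21. Both p16 groups were above the other two, which overlapped each other. SPRY2 was 1.92-fold higher with p16 than in mVenus (log2 difference 0.94 ± 0.09, adjusted p = 6.68e-09). No difference was called for p21 against mVenus (0.05 ± 0.10, adjusted p = 0.662, 95% interval -0.15 to 0.25) or for Torin2 against p16 (95% interval -0.17 to 0.17). Counts per library were as low as 164 for this gene, the fewest of the 10.

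SPRY4 (chr5:142310427-142326455, minus strand, 5 merged exons) had 89.9, 83.2 and 84.6 CPM in mVenus, 129, 124 and 119 in p16, 175, 185 and 171 with Torin2 added to p16, and 80.8, 82.0 and 83.8 in p21. The p16 libraries and the Torin2 libraries formed steps that did not overlap. SPRY4 rose 1.44-fold with p16 (0.53 ± 0.04 on the log2 scale, adjusted p = 2.17e-09) and a further 1.43-fold with Torin2 (0.51 ± 0.04, adjusted p = 2.45e-09). For p21 against mVenus the log2 difference was -0.07 ± 0.05 (adjusted p = 0.247, 95% interval -0.16 to 0.03).

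The SPRED proteins inhibit activation of RAF by Ras; SPRED1 recruits the Ras inactivator neurofibromin to the membrane. SPRED1 (chr15:38252326-38357249, plus strand, 9 merged exons) had 77.6, 74.6 and 77.6 CPM in mVenus, 65.5, 70.9 and 80.6 in p16, 115, 102 and 100.4 with Torin2 added to p16, and 81.7, 80.3 and 84.4 in p21. Only the Torin2 libraries stood apart from the other 9, and they were 1.46-fold above p16 (0.55 ± 0.06, adjusted p = 2.07e-07). SPRED1 was the 1 gene with no call for p16 against mVenus (-0.09 ± 0.06, adjusted p = 0.251, 95% interval -0.22 to 0.05). Without p16 replicate 3 that difference was -0.17 and was called (adjusted p = 0.0138), with adjusted p from 0.0138 to 0.839 over these 11 alternatives. SPRED1 was called higher in p21 than in p16 (0.19 ± 0.06, adjusted p = 0.0185), but not without p16 replicate 1 (0.123), p16 replicate 2 (0.0609) or p21 replicate 3 (0.0694), and its adjusted p was 0.000389 to 0.123 over these 11 alternatives.

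SPRED2 (chr2:65310851-65432637, minus strand, 12 merged exons) varied least. Its 3 libraries spanned 59.8 to 62.0 CPM in mVenus, 71.2 to 74.8 in p16, 78.4 to 83.4 with Torin2 added to p16 and 67.9 to 72.4 in p21. The mVenus libraries were below all others. The rise was 0.26 ± 0.04 on the log2 scale with p16 (adjusted p = 3.24e-05), 0.21 ± 0.04 with p21 (adjusted p = 0.00049) and 0.15 ± 0.04 with Torin2 over p16 (adjusted p = 0.00506).

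PHLDA1 (chr12:76025447-76033932, minus strand, 2 merged exons) had 77.3, 68.7 and 73.3 CPM in mVenus, 110.4, 115 and 123 in p16, 179, 167 and 153 with Torin2 added to p16, and 86.7, 86.9 and 87.6 in p21. All 4 groups were separate, in the order mVenus, p21, p16, p16 with Torin2. PHLDA1 rose 1.59-fold with p16 (0.67 ± 0.06, adjusted p = 2.42e-09), by 0.25 ± 0.06 log2 units with p21 (adjusted p = 0.00111) and a further 1.43-fold with Torin2 (0.51 ± 0.05, adjusted p = 6.54e-08). Exons of PHLDA1 overlap AC011611.3 and AC011611.4 over 16.51% of their bases, and both of those genes had 0 counts.

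**Figure D2:**
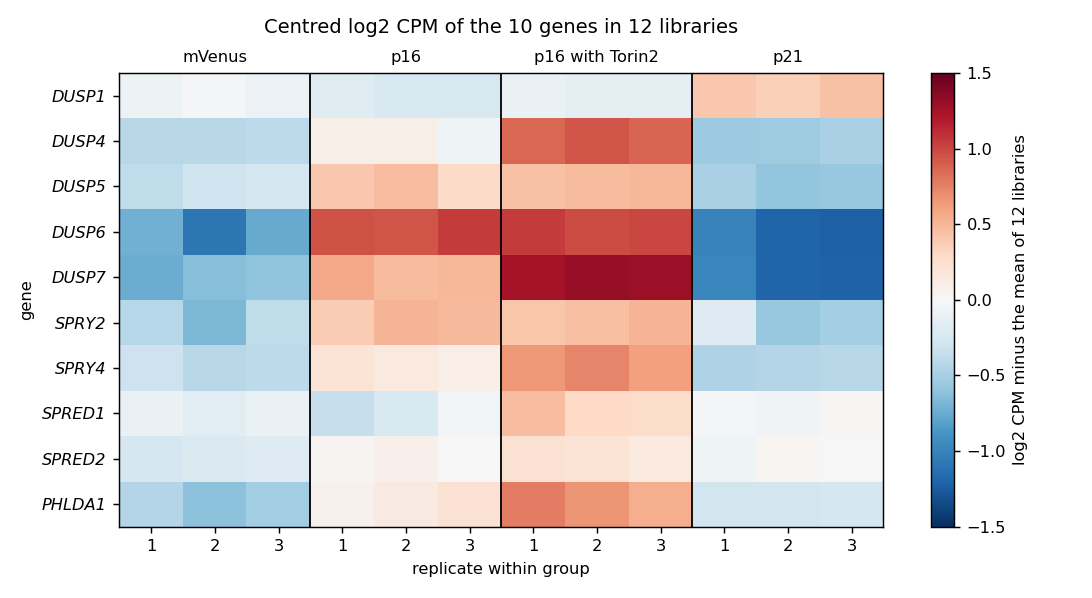
Log2 CPM of the 10 genes (rows) in the 12 libraries (columns, by group and replicate number), each gene minus its mean over the 12 libraries; red is above and blue below that mean. DUSP6 spans -1.22 to 1.05, and the p21 columns are the red ones for DUSP1 and blue ones for DUSP6 and DUSP7.

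Ordered by level within each gene, neighbouring groups differed by the test at every step for DUSP4, DUSP7 and PHLDA1. The steps that were not called were Torin2 to mVenus for DUSP1, p16 to Torin2 for DUSP5 and DUSP6, mVenus to p21 and Torin2 to p16 for SPRY2, p21 to mVenus for SPRY4, p21 to p16 for SPRED2, and p16 to mVenus and mVenus to p21 for SPRED1. Per length, as CPM per kilobase of exon not shared with another gene, the level of DUSP1 was far above those of the others, at 252 in mVenus, 226 in p16, 241 with Torin2 added to p16 and 347 in p21. DUSP4 was at 20.2, 27.6, 49.8 and 18.7 in the same groups. SPRY2 was the lowest in mVenus, at 4.48. DUSP6 was at 8.47 CPM per kilobase in mVenus and 30.1 in p16, on either side of DUSP4; the differences in level between these 2 genes were not tested.

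The comparison of p16 with mVenus asks how these genes differ in cells that express p16. Construct and cell line cannot be told apart, here or with p21. Above, DMSO is named only for the p16 group without Torin2, and the part of any difference in solvent was not tested. Of the 10 genes 9 were called, where 63.7% of all genes were called. Of these, 8 were higher, where 30.9% of the 14504 genes tested were called higher, and 1 was lower (DUSP1), where 32.8% of all genes were lower. The 10 genes were chosen with earlier results of these data known. The counts here and below therefore describe them and are no test of them as a set. DUSP6 and DUSP7 were more than 2-fold higher, and 16.5% of all genes changed by at least 2-fold with a call in either direction. The libraries of the 2 groups did not overlap for 9 of the 10, as for 65.9% of all genes. The median log2 difference of the 10 was 0.60 and that of all genes was -0.00.

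With p21 against mVenus, 3 genes were higher (DUSP1, SPRED2 and PHLDA1) and 4 were lower (DUSP4, DUSP5, DUSP6 and DUSP7). Among all genes 28.2% were higher and 28.3% lower, so the counts were near the background. In either direction 7 of the 10 were called, against 56.4% of all genes, and 7 had groups that did not overlap, against 64.4%. A change of 2-fold or more was called in 0 of the 10, against 12.2% of all genes, and the median was -0.01. The 4 that were lower fell by 0.11 to 0.47 on the log2 scale, and DUSP1, the other phosphatase gene of the 10, rose by 0.46. By DESeq2 3 were higher and 3 lower, without DUSP4, whose call was lost in 7 of 11 alternatives as given above. This comparison and the previous one share the mVenus libraries, so the values are set side by side here: DUSP6 had 1.82 with p16 and -0.32 with p21, DUSP7 had 1.18 and -0.47, DUSP1 had -0.16 and 0.46, and SPRED2 had 0.26 and 0.21.

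The direct comparison of p21 with p16 asks how these genes differ between cells expressing p21 and cells expressing p16. Construct and cell line cannot be told apart in it, and the part of any difference in solvent was not tested. There, 7 of the 10 genes were lower with p21, against 27.2% of all genes, and DUSP1 and SPRED1 were higher, against 27.2% of all genes. That made 9 called, against 54.3% of all genes, and for 8 of the 10 the groups did not overlap, against 58.9%. DUSP6 and DUSP7 passed 2-fold, as 11.2% of all genes did in either direction. DUSP6 was 4.38-fold lower (-2.13 ± 0.07 on the log2 scale, adjusted p = 2.06e-15), DUSP7 3.14-fold lower (-1.65 ± 0.06, adjusted p = 2.68e-15) and DUSP5 1.92-fold lower (-0.94 ± 0.06, adjusted p = 4.51e-11). DUSP1 was 1.54-fold higher (0.62 ± 0.03, adjusted p = 2.41e-12). The remaining lower genes were SPRY2 (-0.89), SPRY4 (-0.59), DUSP4 (-0.56) and PHLDA1 (-0.42). SPRED2 was not called (-0.05 ± 0.04, adjusted p = 0.325, 95% interval -0.15 to 0.04). The median was -0.58, and that of all genes was -0.01.

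**Figure D3:**
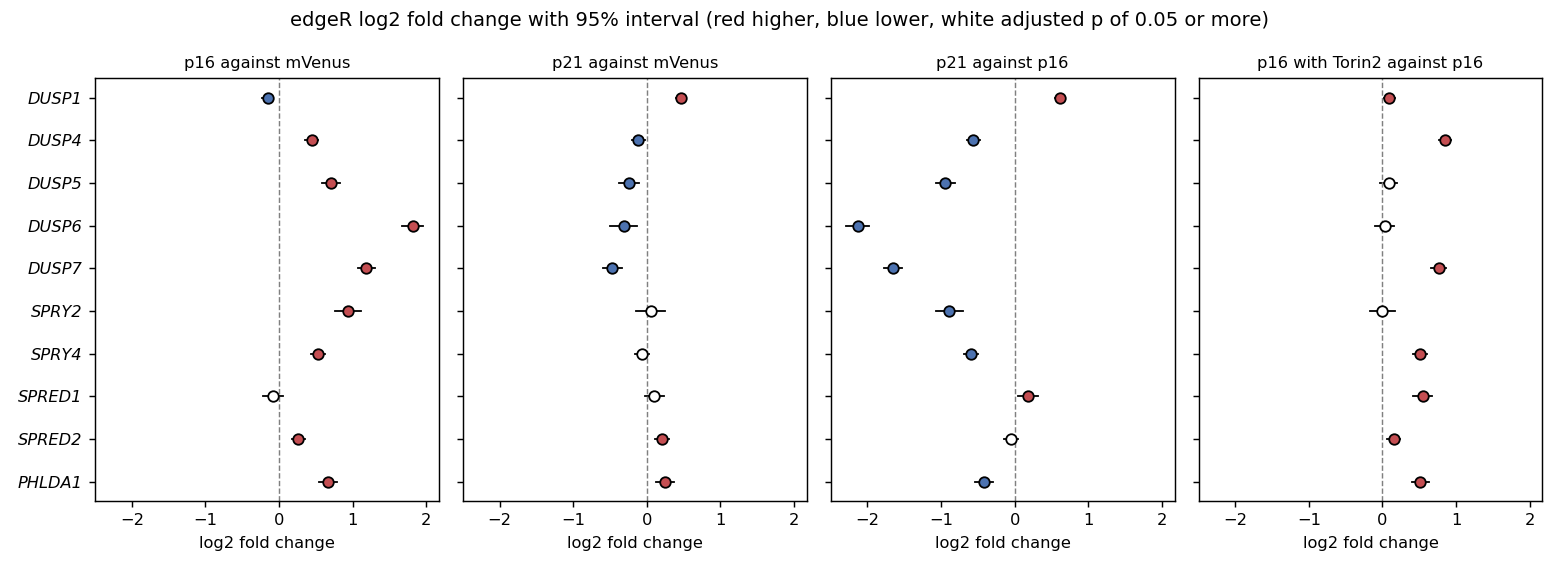
Log2 fold change (horizontal axis) of each of the 10 genes (vertical axis) in 4 comparisons, with 95% intervals; red points were called higher, blue lower, and white ones were not called. DUSP6 lies at 1.82 in p16 against mVenus and at -2.13 in p21 against p16, and no gene is blue in p16 with Torin2 against p16.

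The comparison of p16 with and without Torin2 asks what the drug changes in p16-expressing cells. The activity of mTOR was not measured. Of the 10 genes, 7 were higher with Torin2, against 30.3% of all genes, and 0 were lower, against 29% of all genes. Calls in either direction were made for 59.3% of all genes. The same 7 had groups that did not overlap, against 62% of all genes, and 0 of the 10 passed 2-fold, against 11.1%. The counts were also 7 and 0 by edgeR at an unadjusted p below 0.05 and by DESeq2. The 10 genes fell into those with sizeable additions, DUSP4 (0.85), DUSP7 (0.76), SPRED1 (0.55), SPRY4 (0.51) and PHLDA1 (0.51), those with small ones, SPRED2 (0.15) and DUSP1 (0.09), and those not called, DUSP5, DUSP6 and SPRY2. The median was 0.33, and that of all genes was 0.02. The level of MKI67 was 10.1 CPM in p16 and 51.6 with Torin2 added, and its part in these differences was not tested.

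In p16 with Torin2 against mVenus, 9 genes were higher, against 31.2% of all genes, and 0 were lower, against 36.1%. Construct, cell line and drug cannot be told apart in this comparison or in that of the Torin2 group with p21. Calls in either direction took in 67.4% of all genes, and the groups did not overlap for 10 of the 10, against 71.2% of all genes. These counts were 9 and 0 by edgeR at an unadjusted p below 0.05 and by DESeq2. DUSP1 was not called (-0.06 ± 0.03, adjusted p = 0.104, 95% interval -0.13 to 0.01). DUSP7 was 3.86-fold higher, and its log2 difference of 1.95 was followed by DUSP6 (1.84), DUSP4 (1.30), PHLDA1 (1.18) and SPRY4 (1.04), the 5 genes past 2-fold, against 17.4% of all genes. Against p21, the Torin2 group was higher for 9 genes, against 33.2% of all genes, and lower for DUSP1, against 33.3%. All 10 were called, against 66.5% of all genes, all 10 had groups that did not overlap, against 70.6%, and 5 passed 2-fold, against 17.3%. DUSP7 differed there by 5.34-fold and DUSP6 by 4.47-fold.

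Of 9 other DUSP, SPRY and SPRED genes 6 were tested. p16 against mVenus gave 2 higher, 2 lower and 2 not called, with a median of -0.05, near the background of 30.9% higher and 32.8% lower among all genes. The largest rise was in SPRY1, another Sprouty gene, which had 1.38 ± 0.360 CPM in mVenus, 12.7 ± 0.535 in p16, 9.33 ± 0.243 with Torin2 added to p16 and 3.13 ± 0.893 in p21. SPRY1 was 8.98-fold higher with p16 (log2 difference 3.17 ± 0.17, adjusted p = 1.77e-12), higher with p21 (1.14 ± 0.22, adjusted p = 0.000157) and lower with Torin2 than with p16 alone (-0.44 ± 0.13, adjusted p = 0.00546). DUSP2 (-1.07) and DUSP3 (-0.66), a nuclear ERK phosphatase and a small phosphatase of ERK and JNK, fell with p16. With p21 this list gave 1 higher, 2 lower and 3 not called (28.2% higher and 28.3% lower among all genes), with Torin2 over p16 2, 2 and 2 (30.3% and 29%), and with p21 against p16 2, 3 and 1 (27.2% and 27.2%). DUSP8, DUSP16 and SPRY3 had too few reads to be tested.

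The cascade that these inhibitors act on is described by its own list. Of 21 genes from the receptor EGFR to the RSK kinases, 20 were tested, and 4 were higher, 10 lower and 6 not called, with a median of -0.12; all genes tested had 30.9% higher and 32.8% lower. SHC1, an adaptor between receptor and Ras that shares 15.22% of its exon bases with another gene, had 1.51 ± 0.04 with p16 and 1.19 ± 0.04 with p21, and it was lower with Torin2 than with p16 alone (-0.77 ± 0.04). KSR1, a scaffold for RAF, MEK and ERK, fell with p16 (-1.26), with p21 (-0.81) and again with Torin2 over p16 (-1.09). NRAS fell by 0.82 with p16 and by 0.77 with p21 on the log2 scale, and MAPK3, which encodes ERK1, by 0.46 and 1.01. EGFR was lower with p16 than in mVenus (-0.24). It was 1.42-fold higher with p21 than in mVenus and 2.11-fold higher with Torin2 than with p16 alone. With p21 the cascade list gave 5 higher, 8 lower and 7 not called (28.2% higher and 28.3% lower among all genes), with Torin2 over p16 3, 10 and 7 (30.3% and 29%), and with p21 against p16 8, 6 and 6 (27.2% and 27.2%).

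Of 12 other negative regulators 10 were tested. With p16 4 were higher and 5 lower, where 30.9% and 32.8% of all tested genes were. The counts were 2 and 7 with p21 (28.2% and 28.3% of all genes), 6 and 2 with Torin2 over p16 (30.3% and 29%), and 2 and 5 with p21 against p16 (27.2% and 27.2%). ERRFI1, an inhibitor of the EGF receptor kinase and itself a feedback gene, had 95.5 CPM in mVenus, 193 in p16, 190.05 with Torin2 added to p16 and 152 in p21. Its log2 difference was 1.01 ± 0.04 with p16 (adjusted p = 9.64e-15) and 0.67 ± 0.04 with p21 (adjusted p = 1.61e-11). IL17RD, an inhibitor of the pathway related to interleukin receptors, fell by 0.93 with both p16 and p21, and CBL, a ubiquitin ligase that removes active receptors, fell by 0.65 and 0.81.

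Of 19 listed transcripts known to respond to ERK 18 were tested. With p16 8 were higher, 8 lower and 2 not called, with a median of -0.19, where 30.9% of all tested genes were higher and 32.8% lower. MYC rose 5.05-fold with p16, from 64.6 to 326 CPM, and was 446 with Torin2 added to p16 and 108.7 in p21. EGR1, an immediate early gene, went the other way, with 384.5 CPM in mVenus, 127.4 in p16, 310.7 with Torin2 added to p16 and 160.2 in p21. AREG, which encodes an EGF receptor ligand, was at 563.5, 149.9, 212.7 and 917.8 CPM in the same order, so that it fell with p16 (-1.91) and rose with p21 (0.70). ETV4, an ETS factor, was at 10.2 CPM in mVenus, 5.44 in p16, 17.1 with Torin2 added to p16 and 4.87 in p21. It was 3.15-fold higher with Torin2 than with p16 alone and 1.67-fold higher than in mVenus. The list gave 8 higher, 7 lower and 3 not called with p21 (28.2% higher and 28.3% lower among all genes), 11, 5 and 2 with Torin2 over p16 (30.3% and 29%), and 8, 7 and 3 with p21 against p16 (27.2% and 27.2%).

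**Figure D4:**
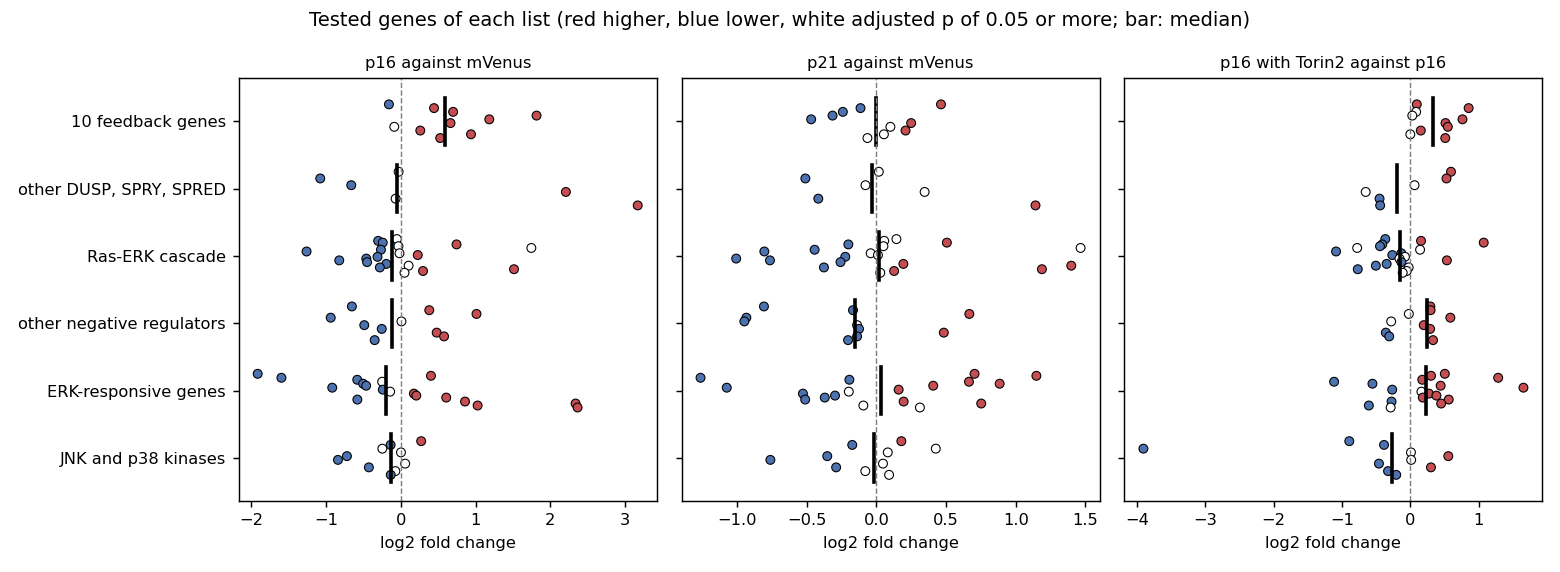
Log2 fold change (horizontal axis) of each tested gene of the lists named on the vertical axis, in 3 comparisons; red points were called higher, blue lower and white not called, and the black bar is the median of the list. With p16 the median is 0.60 for the 10 genes described here (labelled feedback genes) and -0.19 for the ERK-responsive genes, whose points lie on both sides of 0. The list labelled JNK and p38 kinases also holds kinases that act above or below them.

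The genes most like DUSP6 and SPRY4 over the 12 libraries were sought among 10268 genes by the root mean square difference of centred log2 CPM, as a description. For DUSP6 they were C16orf74 (0.101), PCDH1 (0.161), CEP290 (0.194), CA12 (0.232) and GRB7 (0.236). C16orf74, for example, was at 5.82 CPM in mVenus, 19.5 in p16 and 21.6 in p16 with Torin2. For SPRY4 they included RPL27 (0.0543), KLF4 (0.0707), RPS28 (0.0747) and RPS24 (0.0751), of which 3 are ribosomal protein genes, whose counts can be reduced by near-identical pseudogenes, and KLF4 encodes a transcription factor. RPL27 was at 303.1 CPM in mVenus, 413.02 in p16 and 621 in p16 with Torin2.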

How the data were processed

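Polyadenylated RNA from MCF-10A cells was captured with oligo-dT and made into stranded libraries, per the labels' protocols. The deposited values are whole read counts per gene, made by the authors with featureCounts 1.6.3 on exons grouped by gene name in GENCODE 29 and with no strand, pair or multi-mapping option, per the file headers. Reads over several genes or several places are then left out. The submitters' processing notes list HISAT2, FastQC 0.11.3, DESeq2 and the build GRCh38.p7. The authors' tables of comparisons were not used here. Libraries held 13168749 to 18321114 counts.

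Genes were filtered with filterByExpr, leaving 14504. All 12 libraries entered 1 fit (R 4.3.3, edgeR 4.0.16, TMM scaling, quasi-likelihood F test, 8 residual degrees of freedom), with Benjamini-Hochberg adjustment over all tested genes in each comparison and calls at an adjusted p below 0.05. The common biological coefficient of variation was 3.94%, and TMM factors were 0.9666 to 1.046. Levels are CPM of the TMM-scaled library, as mean ± SD (n = 3); log2 differences have their SE. The script was tested on simulated data. Alternatives were DESeq2 1.42.0, its size factors, upper quartile scaling, no filter, only the libraries compared, each replicate left out, and a replicate block.

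The named genes are the 10 members, up to 3 largest called rises and falls per list and comparison with at least 5 CPM in the higher group, 5 genes most like DUSP6 and SPRY4, and the label checks. The text names a part of these, and 1 gene is not reported here. The members and lists were chosen with earlier results of these data known. Replicates were not tied to separate cultures beyond the submitters' word "biological", so p-values measure the spread between these libraries. All pairs of replicates differed by more than sampling noise, with a chi-square of 1.65 to 6.40 per degree of freedom.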

Additional observations from a re-analysis of the deposited data

How the results depend on the processing

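Over the 10 genes, 6 comparisons and all alternatives, 702 values kept their direction and their side of the threshold, 15 lost a call, 3 gained one and 0 reversed. Called genes among the 10 ranged from 9 to 10 for p16 against mVenus, 6 to 8 for p21 against mVenus, 6 to 7 for Torin2 over p16 and 8 to 9 for p21 against p16; for p16 with Torin2 they were 9 against mVenus and 10 against p21 in each of the 11 alternatives other than the replicate block. The calls that changed were DUSP4, DUSP1 and SPRED1, as given beside them; in addition SPRED1 was called for p21 against mVenus with no filter (adjusted p = 0.0204) and with only the libraries compared (0.0237), where it was 0.186 with all libraries, and the cause was not tested. The median log2 difference of all genes moved by at most 0.0313 with another scaling (upper quartile, Torin2 over p16) and by at most 0.0494 over all alternatives (no filter, p16 against mVenus).

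Libraries with the same replicate number did not deviate together (r from -0.0822 to 0.0754 over 18 pairs, 0 above 0.1). These values cannot show whether such libraries were handled together. With the replicate block the called genes among the 10 were 9, 7, 7, 9, 9 and 10 in the order p16 against mVenus, p21 against mVenus, Torin2 over p16, p21 against p16, and p16 with Torin2 against mVenus and against p21, the same counts as without it. Calls among all genes with the block were 9115, 8073, 8505, 7742, 9651 and 9523. SPRY2 had the fewest counts (164 in 1 library), which widens its intervals.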

Other observations

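The kinases of the stress branches were listed apart (10 genes, all tested). This list holds JNK and p38 kinases, which DUSP1 and DUSP4 also act on, and kinases that act above or below them. With p16 against mVenus 1 was higher, 5 lower and 4 not called, where 30.9% of all tested genes were higher and 32.8% lower. With p21 against mVenus the counts were 1, 4 and 5 (28.2% and 28.3% of all genes), and with Torin2 over p16 they were 2, 6 and 2 (30.3% and 29%). MAPK13, a p38 kinase, fell by 0.84 with p16 and by 0.76 with p21 on the log2 scale, from 80.8 CPM in mVenus to 45.2 and 47.7. MAP2K3, a kinase that activates p38, was at 81.8 CPM in p16 and 44.1 in p16 with Torin2 (log2 difference -0.89, edgeR adjusted p = 1.27e-10).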
